A study of Mus musculus with 3 samples.

Results

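The 36 interferon-stimulated genes described here were found by symbol in the deposited gene lists, which hold 31053 genes. All 36 had counts in each of the 3 single-cell libraries. One library came from dorsal skin of control mice given glycerin (normal), one from mice given imiquimod (IMQ), and one from mice given imiquimod together with celastrol (IMQ+celastrol). The mice of all 3 groups were C57BL/6 and 7 weeks old. Imiquimod is a Toll-like receptor 7 agonist that induces psoriasis-like inflammation in mouse skin, and celastrol is a plant triterpenoid. How many mice gave cells to each library was not given in the sources used here.

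Counts are of unique molecular identifiers (UMIs), each standing for 1 captured RNA molecule. The normal library held 10565 cell barcodes and 77880943 UMIs, the IMQ library 8236 and 119831835, and the IMQ+celastrol library 6777 and 103267738. After filters and removal of likely doublets, 9558, 7495 and 6092 cells were kept, with median depths of 5740, 8862 and 10558 UMIs. They carried 95023, 253387 and 203186 UMIs of the 36 genes. The libraries shared few barcodes: 26 between IMQ and normal, 23 between IMQ+celastrol and IMQ, and 15 between IMQ+celastrol and normal. With 1 library per group no difference between conditions could be tested, so every comparison below is between libraries. Levels are UMIs per 1000000 UMIs of a cell class (CPM), and 95% intervals are exact and cover counting error only, not variation between cells, animals or preparations.

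Type I interferons, such as interferon-beta, bind a receptor whose signal brings STAT2 and IRF9 to the nucleus, where they switch on genes that carry an interferon-stimulated response element. Interferon-gamma signals through its own receptor, and its targets overlap with those of type I interferon. In skin, immune cells such as dendritic cells are a main source of interferon, and keratinocytes, fibroblasts and endothelial cells answer to it. The 36 genes include sensors of foreign RNA and DNA, transcription factors, the ISG15 modifier and its enzymes, the IFIT and OAS families, other antiviral effectors and guanylate-binding proteins.

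Promoter sequences are shown for 4 members on which the results below turn: Isg15, Ifit1, Rsad2 and Ifitm3. Isg15, Ifit1 and Rsad2 were among the members that differed most between libraries in myeloid cells. From normal to IMQ, Ifitm3 went the other way from Isg15 in fibroblast-like cells, but the same way in dendritic cell-like cells. The sequences are RefSeq promoters of build GRCm38.p6, 250 bases before to 50 bases after the transcription start, read 5′ to 3′ on the gene's strand. Capitals mark matches to GAAANNGAAA or its reverse complement TTTCNNTTTC, a short form of the interferon-stimulated response element.
Isg15: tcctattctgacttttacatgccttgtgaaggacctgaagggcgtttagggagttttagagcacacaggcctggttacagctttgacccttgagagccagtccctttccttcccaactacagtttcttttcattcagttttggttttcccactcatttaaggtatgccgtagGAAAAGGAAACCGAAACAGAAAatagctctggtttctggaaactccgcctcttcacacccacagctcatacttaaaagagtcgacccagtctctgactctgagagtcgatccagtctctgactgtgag
Ifit1: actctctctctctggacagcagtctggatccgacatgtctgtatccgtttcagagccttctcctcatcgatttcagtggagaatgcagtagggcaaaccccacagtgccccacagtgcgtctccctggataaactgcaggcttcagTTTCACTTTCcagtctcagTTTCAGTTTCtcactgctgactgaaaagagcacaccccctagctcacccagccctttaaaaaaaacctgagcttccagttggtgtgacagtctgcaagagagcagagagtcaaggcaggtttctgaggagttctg
Rsad2: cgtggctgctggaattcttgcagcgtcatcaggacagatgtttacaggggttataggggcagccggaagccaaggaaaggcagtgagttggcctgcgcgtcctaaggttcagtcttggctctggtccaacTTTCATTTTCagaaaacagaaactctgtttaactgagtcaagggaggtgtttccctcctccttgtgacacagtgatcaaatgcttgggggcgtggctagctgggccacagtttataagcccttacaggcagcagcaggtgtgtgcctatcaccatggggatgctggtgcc
Ifitm3: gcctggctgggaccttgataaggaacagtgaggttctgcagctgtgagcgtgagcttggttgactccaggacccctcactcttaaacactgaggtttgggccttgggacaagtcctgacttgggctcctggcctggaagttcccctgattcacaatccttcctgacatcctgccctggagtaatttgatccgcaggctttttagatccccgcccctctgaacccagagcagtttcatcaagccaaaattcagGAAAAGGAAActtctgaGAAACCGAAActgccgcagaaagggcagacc

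The Isg15 promoter (chr4:156200769-156201068, minus strand) held 3 overlapping matches, 78 to 66 bases before the start. The Ifit1 promoter (chr19:34640639-34640938, plus strand) held matches 104 and 85 bases before the start, and that of Rsad2 (chr12:26456403-26456702, minus strand) held 1 at 120 bases before. The Ifitm3 promoter (chr7:141010695-141010994, minus strand) held its 2 matches 2 and 19 bases after the start. Of all 32851 mouse promoters of 300 bases, 1131 (3.44%) held the motif. An entry was found for 27 of the 36 members, and 16 of these 27 held the motif. The other 9 members could not be looked at, so no share is given for the 36. The Ifit2 window held no match, although Ifit2 had the largest ratio of any member in monocyte or macrophage-like cells below, and neither did those of Cmpk2, Herc6, Ifi35, Ifi44, Irf7, Irf9, Oasl1, Oasl2, Samd9l and Xaf1. No entry was found for Dhx58, Ifi204, Ifi27l2a, Mx1, Oas2, Parp14, Rtp4, Usp18 and Zbp1.

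The level of these genes differed more between cell classes than between libraries. Ifitm3, a membrane protein that blocks virus entry, and Bst2 (tetherin), which holds budding virions at the cell surface, are made by many cells at rest. Ifitm3 alone gave 51.1% of the members' UMIs in normal fibroblast-like cells, 70.4% in IMQ and 53.9% in IMQ+celastrol. Summed levels are therefore given for the other 34 genes. These still include Ifi27l2a, which stood at 691 CPM in normal fibroblast-like cells. Its part in the sums by class, by cluster and by cell was not separated unless stated. In the normal library the 34 genes summed to 5022 CPM (95% interval 4766 to 5288) in monocyte or macrophage-like cells, 3051 (2924 to 3183) in blood endothelial-like cells, 2115 (2005 to 2229) in cluster 19 and 1734 (1553 to 1931) in lymphatic endothelial-like cells. Cluster 19 was led by Ccl5, Gzma and Ifng, and its T cell or innate lymphoid identity was not resolved. Fibroblast-like cells stood at 1332 (1313 to 1351), basal keratinocyte-like cells at 213 (204 to 223) and inner root sheath or hair shaft-like cells at 62.4.

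In the IMQ library the order changed. Lymphatic endothelial-like cells (181 cells) stood at 3751 (3651 to 3854) and dendritic cell-like cells (60 cells) at 3641 (3475 to 3813), and these neighbours did not differ beyond counting error. Next were cluster 19 at 2802 (2708 to 2898), and monocyte or macrophage-like cells at 2661 (2608 to 2716). Blood endothelial-like cells followed at 2185 (2090 to 2283), then mast cell-like cells, of which there were only 21, at 1848 (1492 to 2264), and neutrophil-like cells at 1714 (1618 to 1813). The interval of the mast cell-like cells overlapped both of its neighbours. In these cells Isg15 alone stood at 974 CPM, from 49 UMIs, and Ifih1 at 318 CPM, from 16 UMIs. Fibroblast-like cells stood at 1040 (1028 to 1051). In the IMQ+celastrol library monocyte or macrophage-like cells stood at 7507 (7269 to 7751) and neutrophil-like cells at 5976 (5649 to 6317), ahead of every other class with 20 or more cells. Over all kept cells together the 34 genes summed to 536, 633 and 716 CPM in normal, IMQ and IMQ+celastrol, sums in which the mix of cell classes and the level within each class cannot be told apart. Ifi27l2a alone stood at 222, 141 and 246 CPM, and without it the sum was highest in IMQ.

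**Figure D1:**
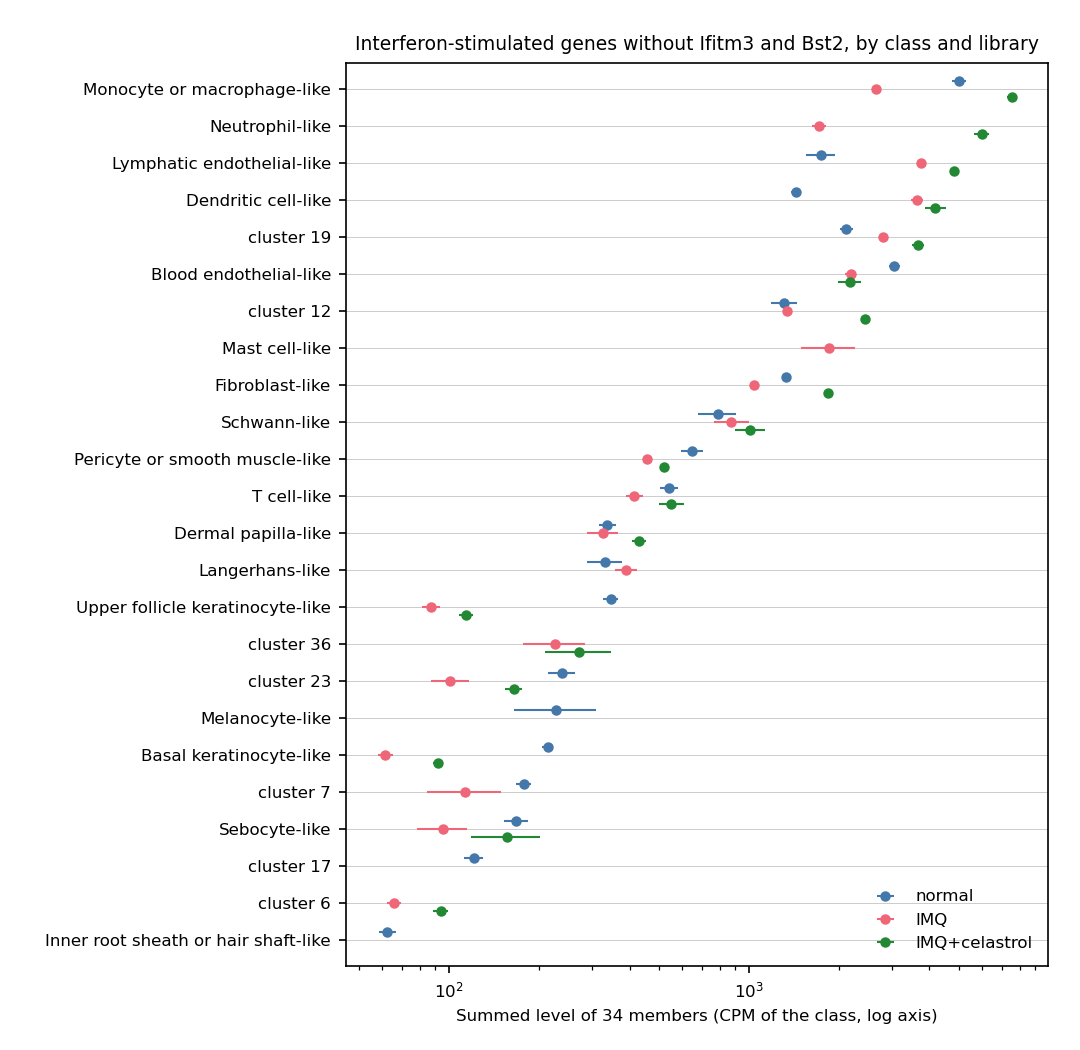
Summed level of 34 interferon-stimulated genes (CPM of the class, log axis) in every class or unnamed cluster with at least 20 cells in a library. Points are the 3 libraries and bars are exact 95% Poisson intervals. Immune and endothelial classes sit at the top, and hair follicle and other keratinocyte classes or clusters at the bottom. The IMQ+celastrol point lies to the right of the IMQ point in most rows.

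IMQ against normal was compared class by class. A gene counted as higher or lower when its CPM differed at least 1.5-fold and the interval of the ratio excluded 1, among genes with at least 20 UMIs in the 2 libraries together. In dendritic cell-like cells 20 of 28 tested members were higher and 0 lower, where 15.7% of all tested genes were higher and 7.74% lower. The median log2 ratio of the members was 1.72, and that of all tested genes was 0.18. Scaling by trimmed means (TMM), which shifted all ratios of this class by 0.29 on the log2 scale, left 19 higher and 0 lower. Ifit3 differed most, at 5.34 CPM in normal and 70.8 in IMQ, 13.3-fold higher (6.25 to 31.4). Irf7, the transcription factor that amplifies interferon production, stood at 13.6 and 127 CPM, 9.34-fold higher (5.71 to 15.8). Ifit2 was 9.09-fold higher and Rsad2 8.33-fold. Ifitm3 stood at 380 and 2911 CPM, 7.67-fold higher (6.98 to 8.43), whereas Ifi27l2a stood at 664 and 655 CPM.

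The dendritic cell-like class differed between libraries in the levels of its own markers. Its dendritic cell list of 10 genes summed to 64338 CPM in normal, 30821 in IMQ and 23229 in IMQ+celastrol, and the monocyte or macrophage list of 11 genes to 4765, 3521 and 7085. Cd74, H2-Eb1 and H2-Ab1 of the dendritic cell list were among the leading genes of the cluster. Whether the cells or only their levels of such genes differed was not tested. All 10 dendritic cell genes had UMIs in normal and in IMQ, while Xcr1, Ccr7 and Zbtb46 were at 0 in the 24 cells of IMQ+celastrol. The part of these differences in the members' levels was not tested.

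Lymphatic endothelial-like cells also had more members higher than lower in IMQ. Of 27 tested members 9 were higher and 2 lower, against 5.49% and 4.32% of all genes, with a median log2 ratio of 1.03 for members and 0.09 for all. Ifit1 had 4 UMIs in normal (20.8 CPM) and 1237 in IMQ (878 CPM), 42.2-fold higher (16.4 to 155). Rsad2 had 1 UMI and 355, 48.4-fold (8.63 to 1917), and Oasl1 0 and 61, at least 2.77-fold higher when 3 UMIs in the normal cells are taken as the limit of detection. Ifit2 was 7.22-fold higher (3.77 to 15.9), and Ifit3, with 1 and 78 UMIs, 10.6-fold (1.85 to 425). Isg15 stood at 156 and 1087 CPM, 6.96-fold higher (4.86 to 10.4). The normal library held only 52 of these cells, and these values rest on its 192024 UMIs. Ifi27l2a, of the ISG12 family, went the other way, from 911 to 220 CPM, 4.14-fold lower (3.42 to 5), and Bst2 was 1.57-fold lower. The fibroblast list summed to 2656 CPM in the normal cells and 534 in the IMQ cells, and its part in the ratios was not tested.

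In cluster 19, 11 of 25 tested members were higher and 1 lower, against 5.99% and 8.35% of all genes, with medians of 0.78 and -0.06. TMM scaling, a shift of -0.10, gave 13 higher and 1 lower. Rsad2 stood at 10.7 and 104 CPM, 9.69-fold higher (4.56 to 24.6). Ifit2 had no UMI in normal and 45 in IMQ, at least 8.14-fold higher against 3 UMIs. Oasl1 had 1 and 66 UMIs, 35.8-fold higher (6.21 to 1435), and Ifit1 was 2.44-fold higher. Ifi27l2a was again the exception, 2.06-fold lower.

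Monocyte or macrophage-like cells showed the reverse. Of 34 tested members 0 were higher and 12 lower in IMQ, where 9.15% of all genes were higher and 8.38% lower, with medians of -0.19 and 0.03. TMM scaling, a shift of -0.16, gave 2 higher and 11 lower. Ifit2 stood at 136 CPM in normal and 16.3 in IMQ, 8.36-fold lower (5.43 to 12.8). Ifit3 was 6.58-fold lower and Ifit1 4.24-fold. Isg15 stood at 599 and 170 CPM, 3.54-fold lower (2.97 to 4.19), and Rsad2 at 286 and 83.2, 3.43-fold lower (2.66 to 4.40). Ifi27l2a was 2.21-fold lower. The class was made of different cells: cluster 35, led by C1q genes, gave 108 of the 126 normal cells, while cluster 18, with Lyz2 and Chil3 as leading genes, gave 491 of the 548 IMQ cells. The dendritic cell list summed to 26582 CPM in the normal cells, with Flt3, Xcr1, Clec9a and Ccr7 at 0, and to 1318 in the IMQ cells. Median depth was 1822.5 UMIs per cell in normal and 6786.5 in IMQ. Within cluster 35 alone the 34-gene sum was 2.75-fold lower in IMQ, with 57 IMQ cells. When each cell was weighted equally the class had 6 higher members, and when each library was clustered by itself it had 4. The share of all genes called under these alternatives is not given here, so these counts have no background beside them.

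Fibroblast-like cells had members on both sides, 5 of 36 higher and 8 lower, against 13.5% and 15.2% of all genes, shares close to the background. Ifi204, a DNA sensor of the p200 family, stood at 58.6 CPM in normal and 261 in IMQ, 4.45-fold higher (4.14 to 4.79). Irf7 was 2.01-fold higher, Oasl1 1.98-fold and Ifitm3 1.73-fold. Oas3 had 3 and 45 UMIs, 6.87-fold higher (2.21 to 34.6). Ifi27l2a stood at 691 and 272 CPM, 2.54-fold lower (2.46 to 2.61), Cmpk2 was 3.47-fold lower, Xaf1 1.90-fold and Isg15 1.80-fold. The 34-gene sum of the class was 1.28-fold lower in IMQ. This sum holds Ifi27l2a, whose fall from 691 to 272 CPM exceeded that of the sum. The other members together were higher in IMQ. Different clusters held the fibroblast-like cells of the 2 libraries: clusters 0, 1 and 16 held most of the normal ones, and cluster 2 held 1225 of the 3097 IMQ cells and 1 normal cell. In the 5 clusters with enough cells in both libraries the sum was lower in IMQ in each, by 1.26-fold in cluster 4, 1.68-fold in cluster 3, 1.88-fold in cluster 0, 1.95-fold in cluster 1 and 3.36-fold in cluster 13. The count of lower members was 15 when each library was clustered by itself and 14 when each cell was weighted equally, again without a share of all genes to set beside it.

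Blood endothelial-like cells had 1 of 32 members higher and 17 lower, against 11.0% and 11.4% of all genes, with medians of -0.80 and 0.01. Bst2 stood at 1084 and 512 CPM, 2.12-fold lower, Zbp1, a sensor of Z-form nucleic acid, was 6.01-fold lower, Cmpk2 3.26-fold, Ifi27l2a 2.69-fold and Gbp3 2.65-fold. The one higher member was Oasl1, 5.62-fold (2.38 to 16.1). IMQ held 52 of these cells, with a median of 15224.5 UMIs, and normal held 188, with 3237.

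Keratinocyte classes had most tested members lower in IMQ. In basal keratinocyte-like cells 14 of 21 were lower and 2 higher, against 19.1% and 25.1% of all genes, with medians of -1.51 and 0.12. Ifi27l2a stood at 91 CPM in normal and 5.66 in IMQ, 16.1-fold lower (13.1 to 19.8). Usp18, the protease that removes ISG15 and damps the interferon receptor, was 38.6-fold lower (17.2 to 107), from 12.1 to 0.315 CPM. Cmpk2 was 13.1-fold lower and Oasl2 11.4-fold. The 2 higher members were Ifi204, with 0 and 37 UMIs, at least 5.96-fold, and Rsad2, with 1 and 49 UMIs, 23.7-fold (4.06 to 955). The neutrophil list of 9 genes summed to 10.2 CPM in normal, 17782 in IMQ and 2070 in IMQ+celastrol in this class, and its part in the members' levels was not tested. The list includes S100a8 and S100a9, which were also among the leading genes of cluster 6, beside Krt6b and Krt16. The sum is therefore not a measure of neutrophil RNA alone, and the genes that carried it are not given here. In upper follicle keratinocyte-like cells 12 of 15 were lower and 1, Ifitm3, higher, against 17.8% and 18.7%, with medians of -1.31 and 0.04. Ifit1 had 22 UMIs in normal and 1 in IMQ there, Xaf1 was 5.79-fold lower and Isg15 4.70-fold. Ifi27l2a was 39.4-fold lower (29.0 to 54.9), and Ifitm3 2.74-fold higher. In both keratinocyte classes different clusters held most normal and most IMQ cells, namely clusters 8 and 34 against 15 in the basal class and 24 against 9 in the upper follicle class.

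In the other classes fewer members were called. Pericyte or smooth muscle-like cells had 1 of 26 members higher (Gbp2, 1.55-fold) and 5 lower, against 8.47% and 10.4%. The lower ones included Ifi27l2a, 2.79-fold, and Isg15, 1.84-fold. Its clusters differed: the 34-gene sum was 3.38-fold lower (2.88 to 3.94) in cluster 31, the lowest ratio of all clusters compared, where normal had 24 cells, and 1.29-fold lower (1.14 to 1.45) in cluster 5. T cell-like cells had 2 of 19 higher and 3 lower, against 15.3% and 14.0%. Bst2 stood at 724 and 120 CPM in T cell-like cells, 6.03-fold lower. Cluster 25, led by Il17a and Il22, gave 69 of the 446 normal T cell-like cells and 233 of the 498 IMQ ones, and the part of this was not tested. Cluster 12, led by Apod and Cfd and with the fibroblast list at 37262 to 44300 CPM, had 4 of 26 higher and 3 lower, against 5.76% and 9.38%. TMM scaling, a shift of -0.20, gave 7 higher and 2 lower in cluster 12. Its higher members were Zbp1, with 1 and 79 UMIs, Irf7, 3.27-fold, Stat2, 3.23-fold, and Ifi204, 1.98-fold.

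**Figure D2:**
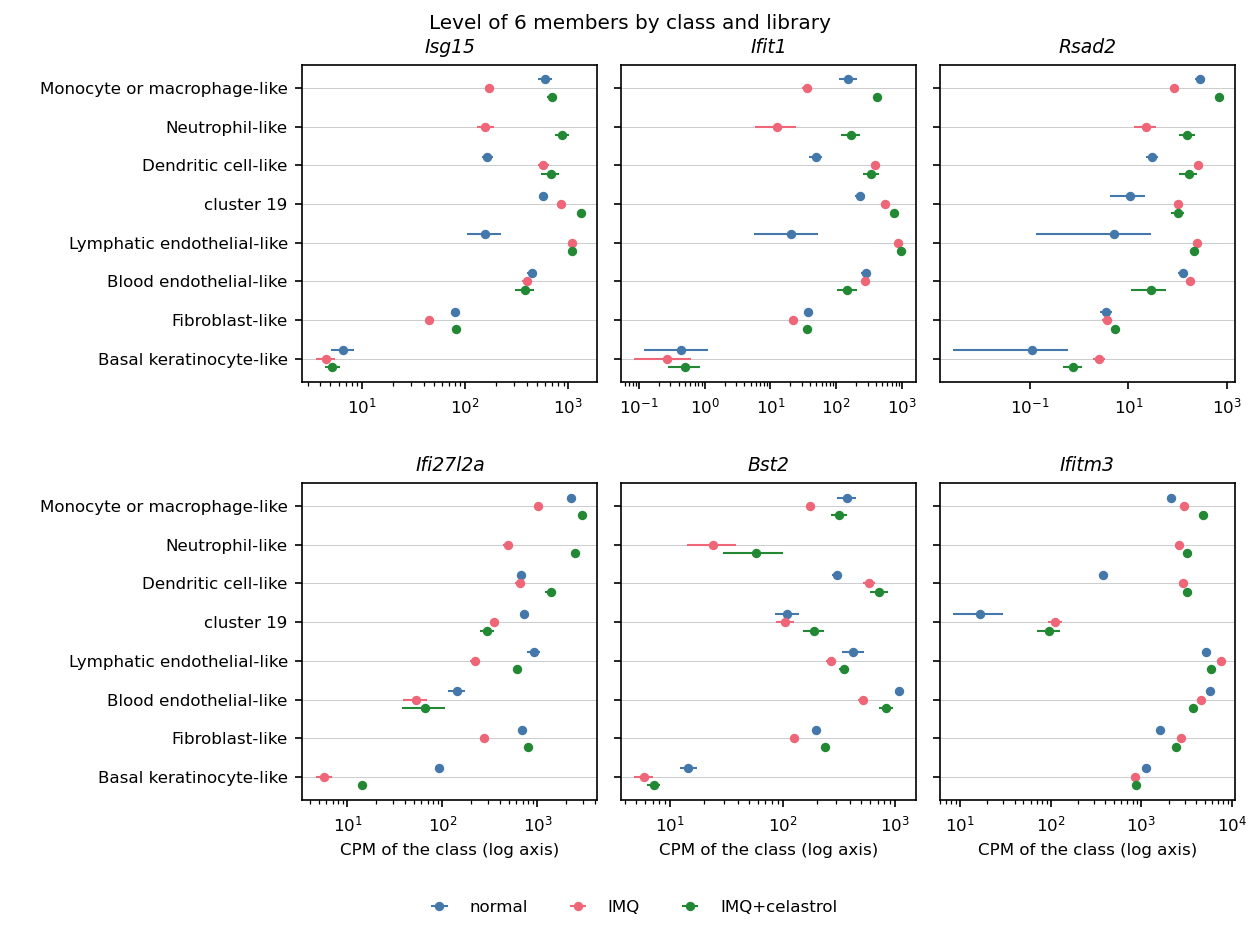
Level of Isg15, Ifit1, Rsad2, Ifi27l2a, Bst2 and Ifitm3 in 8 classes and the 3 libraries (CPM of the class, log axes that differ between panels). Bars are exact 95% Poisson intervals, and only classes with at least 20 cells in a library are drawn. Isg15, Ifit1 and Rsad2 are lowest in IMQ in monocyte or macrophage-like cells, while in dendritic cell-like and lymphatic endothelial-like cells they are lowest in normal.

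IMQ+celastrol against IMQ was compared by the same rule. This comparison shares the IMQ library with the one above, so a level that is low in that library alone appears as lower in the first and higher in the second. The largest differences lay in myeloid cells. In monocyte or macrophage-like cells 22 of 34 tested members were higher in IMQ+celastrol and 0 lower, where 4.82% of all genes were higher and 5.01% lower. The median log2 ratio was 0.95 for members and -0.05 for all genes. Ifit2, one of the IFIT proteins that bind foreign RNA, stood at 16.3 CPM in IMQ and 200 in IMQ+celastrol, 12.3-fold higher (8.82 to 17.3). Ifit1 stood at 36.2 and 412 CPM, 11.4-fold higher (9.11 to 14.3). Ifit3 was 10.1-fold higher (5.19 to 20), with 17 and 24 UMIs. Rsad2 (viperin), an enzyme that makes a chain-terminating nucleotide, stood at 83.2 and 699 CPM, 8.39-fold higher (7.17 to 9.83). Isg15, a ubiquitin-like modifier, stood at 170 and 692 CPM, 4.08-fold higher (3.57 to 4.67).

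By role, 3 of 3 tested IFIT genes were higher in these cells, 4 of 5 OAS genes, 6 of 7 other antiviral effectors, 2 of 3 genes of the ISG15 system, 2 of 3 guanylate-binding proteins, 2 of 5 sensors, 1 of 3 transcription factors and 2 of 5 tested other genes. Irf7 was the transcription factor, 1.77-fold, and Ifih1 (MDA5) and Zbp1 were the sensors, 2.53-fold and 1.85-fold. Ifitm3 was 1.61-fold higher, at 2988 and 4807 CPM. The IMQ+celastrol library held 96 of these cells, 80 of them in cluster 18. Within cluster 18 the 34-gene sum was 2.89-fold higher (2.78 to 3.01). The class's own list of 11 markers summed to 25685 CPM in IMQ and 20706 in IMQ+celastrol, with UMIs of all 11 in both. The neutrophil list summed to 2461 and 1905, the basal keratinocyte list to 182 and 552, and the 5 dissociation genes to 7226 and 8182.

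Neutrophil-like cells had 16 of 24 tested members higher and 0 lower, against 9.06% and 5.78% of all genes, with medians of 1.27 and 0.05. TMM scaling, a shift of 0.22, left 13 higher and 0 lower. Ifit1 had 9 UMIs in 141 IMQ cells and 35 in 69 IMQ+celastrol cells, 13.1-fold higher in CPM (6.19 to 31.1). Rsad2 was 6.97-fold higher (3.73 to 13.6). Isg15 stood at 157 and 872 CPM, 5.54-fold higher (4.35 to 7.08), and Ifi27l2a at 486 and 2461, 5.06-fold higher (4.41 to 5.82). The 34-gene sum was 3.49-fold higher (3.22 to 3.78). The class's own list summed to 255368 and 228492 CPM with all 9 markers present, the monocyte or macrophage list to 4235 and 3711, and the basal keratinocyte list to 164 and 670. The dissociation genes summed to 2300 and 4305 CPM, and their part in the result was not tested. Fewer than 20 neutrophil-like cells were in the normal library, so no comparison with it was made.

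Fibroblast-like cells, the most numerous class, had 23 of 36 members higher in IMQ+celastrol and 0 lower, where 12.5% of all genes were higher and 5.21% lower. The median log2 ratio was 0.71 for members and 0.15 for all genes, and TMM scaling, a shift of 0.16, left 15 higher and 0 lower. The make-up of the class differed: cluster 2 held 1225 of the 3097 IMQ cells and 73 of the 2413 IMQ+celastrol cells. Within clusters 0, 1 and 2, 5 of 28, 11 of 27 and 13 of 29 tested members were higher and 0 lower. The share of all genes called within each of these clusters is not given here, so these counts have no background beside them. Member counts for the other fibroblast-like clusters are not given either. The part of the difference in make-up in the class counts was not tested. Ifi27l2a stood at 272 CPM in IMQ and 790 in IMQ+celastrol, 2.90-fold higher (2.83 to 2.98), against 691 in normal. Oas1a, an enzyme that makes the 2-5A activator of RNase L, stood at 2.73 and 7.42 CPM, 2.72-fold higher, Ifit3b was 2.55-fold higher, and Oasl2 stood at 18.8 and 43.8, 2.33-fold. Isg15 stood at 44.4 and 82.2 CPM, against 79.8 in normal, and Bst2 at 126 and 236, against 198. All 3 guanylate-binding proteins were higher, as were 3 of 4 IFIT genes, 3 of 5 OAS genes, 2 of 3 transcription factors, 2 of 3 genes of the ISG15 system, 4 of 7 other antiviral effectors, 5 of 6 other genes and 1 of 5 sensors. Ifitm3 stood at 2772 and 2426 CPM and was in neither group. The basal keratinocyte list summed to 187, 256 and 568 CPM in normal, IMQ and IMQ+celastrol, and the dissociation genes to 5100, 8882 and 7223.

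Lymphatic endothelial-like cells had 12 of 31 members higher and 0 lower, against 4.15% and 4.28%, with medians of 0.54 and -0.01. Of the 9 members that were higher in IMQ than in normal there, only Ifit3 was among these 12, at 1.92-fold. Gbp2, a guanylate-binding protein that attacks pathogen-containing vacuoles, stood at 55.4 CPM in IMQ and 248 in IMQ+celastrol, 4.48-fold higher (3.46 to 5.85). Ifi44 was 2.97-fold higher, Ifi27l2a 2.76-fold, Usp18 2.68-fold and Gbp7 2.66-fold. Isg15 stood at 1087 and 1085 CPM, and Ifit1 at 878 and 967. Among pathway genes outside the members, Socs1, an inhibitor of JAK kinases, was 6.74-fold higher and the interferon-gamma-responsive GTPase Iigp1 2.54-fold.

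Cluster 12 had 7 of 29 members higher and 0 lower, against 8.63% and 4.02%, and TMM scaling, a shift of 0.16, left 6. Its Ifi27l2a stood at 425 and 1372 CPM, 3.23-fold higher (3.01 to 3.46), and its Oas1a was 3.29-fold higher, with 11 and 18 UMIs. Cluster 19 had 6 of 26 higher and 0 lower, against 5.02% and 6.60%. Its Ifit2 was 3.17-fold higher, Samd9l 2.06-fold, and Isg15 stood at 856 and 1315 CPM, 1.54-fold higher. In cluster 19 the fibroblast list summed to 115 CPM in IMQ and 1126 in IMQ+celastrol, and its part was not tested.

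Basal keratinocyte-like cells had 9 of 23 members higher and 2 lower, against 9.12% and 9.42%, with medians of 0.52 and -0.07, and 10 higher and 2 lower after TMM scaling, a shift of -0.10. Cluster 15, with the cycling markers Ube2c and Top2a among its leading genes, gave 319 of the 355 IMQ cells and 294 of the 874 IMQ+celastrol cells. Cluster 14 gave 36 and 567, so the class ratios also hold that difference in make-up. Levels were low: Herc6, the ISG15 ligase, stood at 0.262 and 0.971 CPM, 3.71-fold higher (1.41 to 12.3), and Ifi27l2a at 5.66 and 14.4, 2.54-fold. Samd9l was 3.43-fold higher, Usp18 3.20-fold and Oas1a 2.68-fold. With at least 100 UMIs required, 5 were higher and 0 lower. Rsad2 was 3.40-fold lower, from 49 to 21 UMIs, and Ifi204 2.34-fold lower. Upper follicle keratinocyte-like cells had 3 of 15 higher and 2 lower, against 5.65% and 6.17%, and 3 higher and 1 lower after TMM scaling. Ifi27l2a was 3.24-fold higher there and Ifitm3 1.67-fold lower, from 720 to 432 CPM.

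In the other 4 classes few members were higher. Dendritic cell-like cells had 1 of 23 higher (Ifi27l2a, from 655 to 1381 CPM) and 1 lower (Ifi204, 2.55-fold), against 8.79% and 6.68%, with medians of -0.05 and -0.03. TMM scaling, a shift of 0.19, gave 1 higher and 4 lower. The IMQ+celastrol library held only 24 of these cells. Blood endothelial-like cells had 4 of 28 higher and 5 lower, against 9.93% and 8.06%, and after TMM scaling, a shift of 0.13, 3 higher and 5 lower. Rsad2 was 6.34-fold lower (3.01 to 16) in these cells and Gbp3 3.53-fold higher, with 21 cells in IMQ+celastrol. Pericyte or smooth muscle-like cells had 3 of 30 higher and 0 lower, against 5.46% and 3.99%. T cell-like cells had 2 of 19 higher, Bst2 and Samd9l, and 0 lower, against 6.12% and 4.49%.

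**Figure D3:**
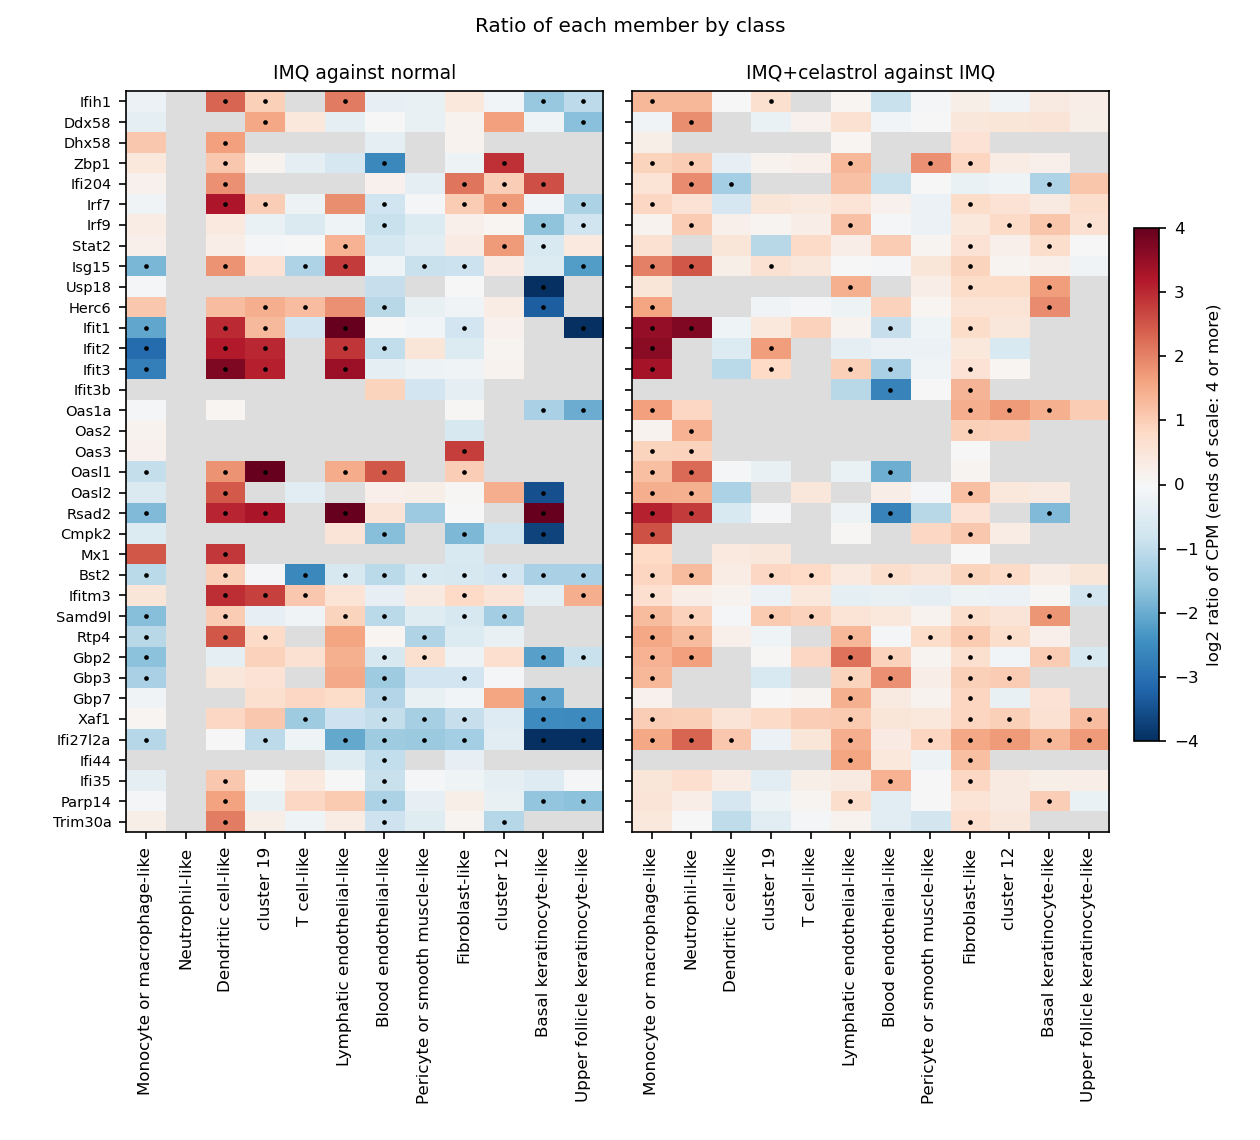
log2 ratio of the CPM of each of the 36 members, ordered by role, in 12 classes for IMQ against normal (left) and IMQ+celastrol against IMQ (right). Red is higher, blue lower, grey under 20 UMIs in the 2 libraries together or fewer than 20 cells, and black dots mark ratios of at least 1.5-fold with an interval excluding 1. Ifit1, Ifit2, Ifit3 and Rsad2 are red on the left in dendritic cell-like and lymphatic endothelial-like cells and red on the right in monocyte or macrophage-like cells.

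Members of one role did not always move together. Among the sensors, Ifih1 was higher in IMQ than in normal in 3 of 10 tested classes and lower in 2, and Zbp1 was higher in IMQ+celastrol than in IMQ in 5 of 10. Ddx58 (RIG-I) was higher in 1 class and lower in 1 of 10 in IMQ, and higher in 1 of 11 in IMQ+celastrol. Dhx58 (LGP2), a regulator of both, reached 20 UMIs in only 4 and 3 classes and was higher in 1, dendritic cell-like cells in IMQ. Of the transcription factors, Irf7 was higher in 4 of 11 classes in IMQ and lower in 2. Irf9, the DNA-binding part of the STAT complex, was lower in 3 of 11 in IMQ and higher in 5 of 12 in IMQ+celastrol. Its partner Stat2 was higher in 2 and lower in 1 of 11 classes in IMQ, and higher in 2 and lower in 0 of 11 in IMQ+celastrol.

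Isg15 was higher in IMQ in 2 of 11 classes and lower in 5, and higher in IMQ+celastrol in 4 of 12. Usp18 could be tested in only 4 and 6 classes, being lower in 1 in IMQ and higher in 3 in IMQ+celastrol. Ifit1, Ifit2 and Ifit3 were each higher in IMQ in 3 classes, the same dendritic, lymphatic and cluster 19 cells, and were lower in 3, 2 and 1. The IFIT genes lie side by side on chromosome 19, between 34550694 and 34650009 of GRCm38. Ifit3 shares 6.34% of the 91-base windows in its last 500 bases with Ifit3b, so reads from the shared stretch cannot be assigned to one of them, and Ifit3b had too few UMIs in most classes. Oas1a shares 42.2% of such windows with Oas1g, and its values are uncertain for that reason.

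Oasl1, an OAS-like protein without enzyme activity, was higher in IMQ in 5 of 6 tested classes and lower in 1, monocyte or macrophage-like cells. Oas2 and Oas3 could be tested in 2 classes in the first comparison and in 4 and 3 in the second. Each was higher in 2 classes in IMQ+celastrol. Oasl2 was higher in 1 class and lower in 1 of 8 in IMQ, and higher in 3 of 9 in IMQ+celastrol. Mx1, a dynamin-like antiviral GTPase, was tested in 3 and 4 classes and was higher only in dendritic cell-like cells in IMQ, 7.10-fold. Of the guanylate-binding proteins, Gbp2 was lower in 4 of 11 classes and higher in 1 in IMQ, then higher in 6 and lower in 1 of 11 in IMQ+celastrol, and Gbp3 was lower in 3 of 8 and higher in 5 of 7. Gbp7 was lower in 2 of 9 and then higher in 2 of 9. Gbp3 shares 0.375% of its windows with Gbp7.

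Ifi27l2a and Bst2 were the members with the widest differences across classes. Ifi27l2a was lower in IMQ than in normal in 8 of 11 classes and higher in 0, and higher in IMQ+celastrol than in IMQ in 9 of 12. Bst2 was lower in 9 of 11 and higher in 1, dendritic cell-like cells, and then higher in 7 of 12. Xaf1, which promotes cell death, was lower in 6 of 11 and higher in 5 of 12. Ifitm3 differed from these: it was higher in IMQ in 5 of 11 classes and lower in 0, and in IMQ+celastrol it was higher in 1 and lower in 1 of 12. Rtp4 and Samd9l, both antiviral effectors, were each higher in IMQ+celastrol in 6 classes, of 10 and 11. Rsad2 was higher in IMQ in 4 of 8 classes and lower in 1, and in IMQ+celastrol higher in 2 and lower in 2 of 9. Cmpk2, a mitochondrial nucleotide kinase encoded beside Rsad2, was lower in IMQ in 3 of 6 classes and higher in IMQ+celastrol in 2 of 5. Ifi204 was higher in IMQ in 4 of 7 classes, and in IMQ+celastrol higher in 1 and lower in 2 of 10. Herc6 was higher in 2 and lower in 2 of 10, and then higher in 2 of 9. Ifi44 reached 20 UMIs in only 3 and 4 classes. Ifi35 was in neither group in 9 of 11 and 10 of 12 classes, Parp14 in 7 of 11 and 10 of 12, and Trim30a in 6 of 9 and 9 of 10.

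Classes hold several clusters, and the summed 34 genes were compared cluster by cluster. These sums hold Ifi27l2a, which by class was lower in IMQ in 8 of 11 and higher in IMQ+celastrol in 9 of 12. IMQ against normal could be compared in 21 clusters, with a median ratio of 0.716 (range 0.296 to 2.53). The interval lay below 1 in 15 and above 1 in 4, and the sum was at least 1.5-fold lower in 10 and higher in 2, the dendritic and lymphatic clusters. IMQ+celastrol against IMQ could be compared in 28 clusters, with a median ratio of 1.37 (range 0.802 to 3.49). The interval lay above 1 in 23 and below 1 in 1, cluster 32 of the pericyte or smooth muscle-like cells. The sum was at least 1.5-fold higher in 10 and lower in 0. Among fibroblast-like clusters the ratio ran from 1.15 in cluster 4 to 2.03 in cluster 10. Ifitm3 taken alone was higher in IMQ in 7 of the 21 clusters and lower in 2.

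**Figure D4:**
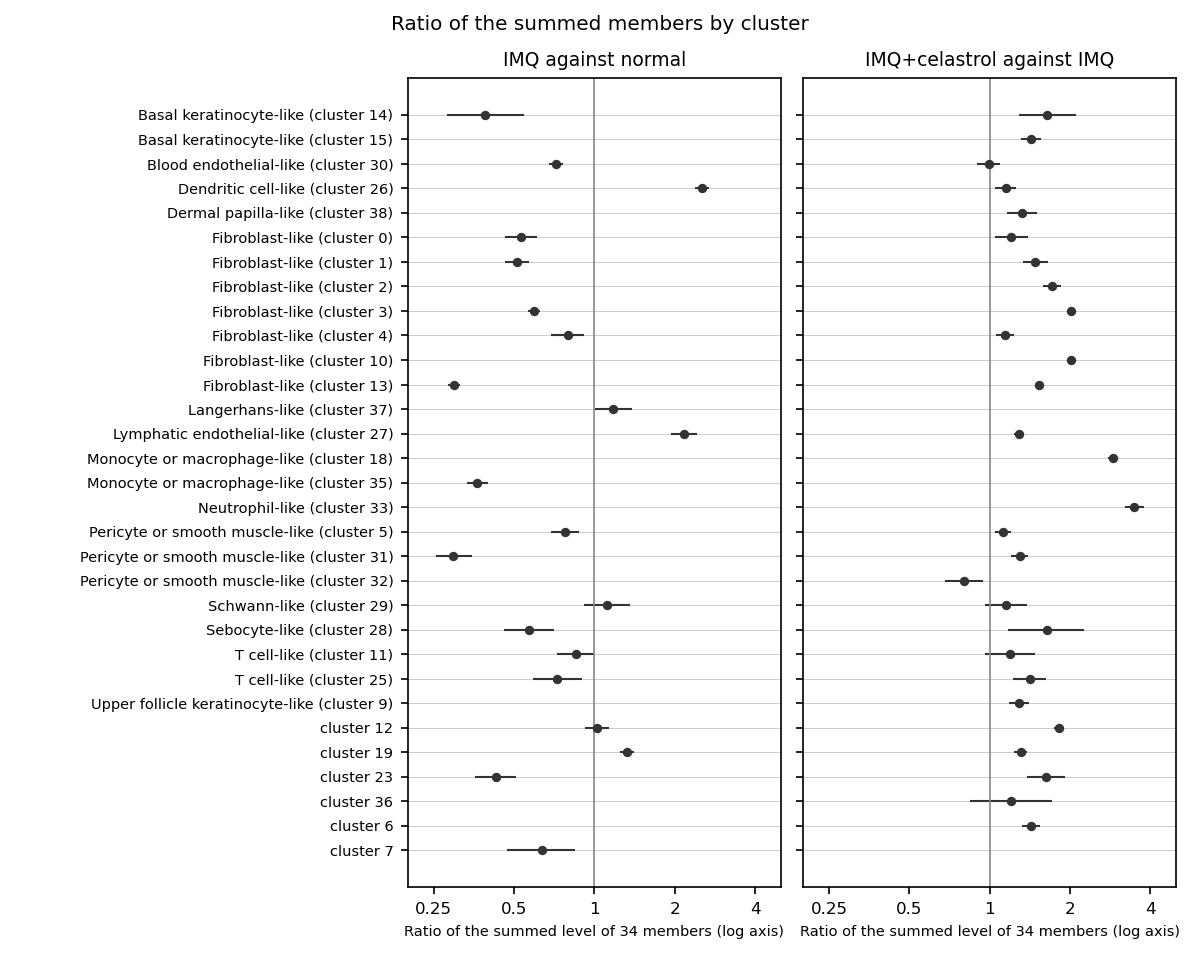
Ratio of the summed level of 34 members in each cluster with at least 20 cells in both libraries (log axis). Points are ratios, bars exact 95% conditional intervals, and the grey line marks no difference. Most points lie left of the line for IMQ against normal and right of it for IMQ+celastrol against IMQ.

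The sums can come from all cells or from few, so each cell was thinned to 2000 UMIs and its UMIs of the 34 genes were counted. In monocyte or macrophage-like cells the mean was 9.57 UMIs in normal (61 cells), 5.59 in IMQ (445) and 14.8 in IMQ+celastrol (75). Cells with 10 or more made up 32.8%, 18.7% and 58.7%. Shallower cells were left out, 65 in normal, 103 in IMQ and 21 in IMQ+celastrol. In neutrophil-like cells the mean was 3.31 in IMQ (130 cells) and 12.1 in IMQ+celastrol (55), and 9.23% and 56.4% of cells had 10 or more. The median cell moved as well as the mean: it held 4 UMIs in IMQ and 11 in IMQ+celastrol among monocyte or macrophage-like cells, and 2 and 11 among neutrophil-like cells.

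In cluster 19 and lymphatic endothelial-like cells a few cells held much of the total. In cluster 19 the median was 2, 3 and 3.5 UMIs per cell in normal, IMQ and IMQ+celastrol, with means of 4.45, 6.10 and 7.46. The variance was 10.8, 24.6 and 12.3 times the mean, the highest cells held 50, 135 and 53 UMIs, and the top 10% of cells held 46.8%, 53.1% and 43.1% of these UMIs. In lymphatic endothelial-like cells the variance was 15.1 times the mean in IMQ and 11.2 times in IMQ+celastrol. The top 10% of cells held 47.9% and 37.1% of the UMIs there. Splitting the 34 genes into 2 sets and correlating their sums over single cells gave 0.73 over 170 IMQ cells and 0.65 over 129 IMQ+celastrol cells, a description of cells that share a library and a depth.

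In fibroblast-like cells the mean was 2.86, 1.94 and 3.36 UMIs per cell. Cells with 10 or more made up 6.36%, 1.53% and 7.18%, and the variance was 7.12, 3.60 and 4.94 times the mean. By that ratio, levels were most uneven among the normal cells. In basal keratinocyte-like cells the means were 0.447, 0.0966 and 0.199 UMIs, and the highest cells held 9, 3 and 3. With means below 1 UMI, no per-cell difference was read from them.

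**Figure D5:**
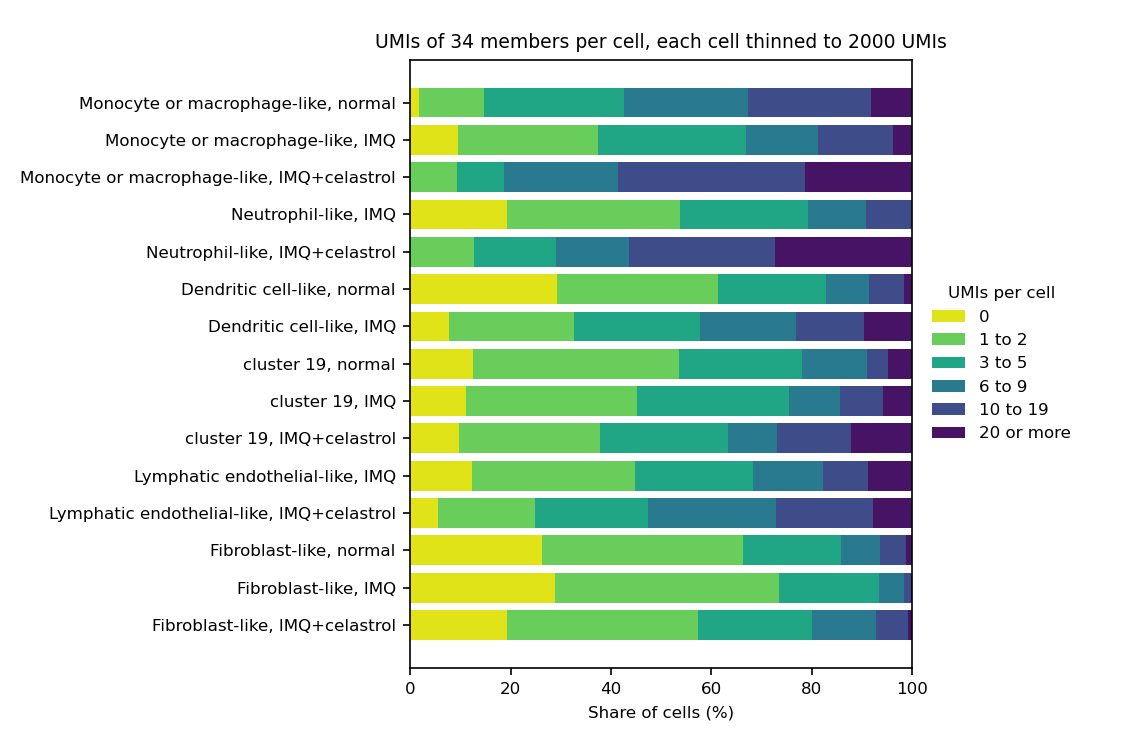
Share of cells (%) by the number of UMIs of 34 interferon-stimulated genes after each cell was thinned to 2000 UMIs, for 6 classes and each library with at least 50 cells of that depth. Colours run from 0 UMIs (yellow) to 20 or more (dark purple). Cells with 10 or more make up 18.7% of monocyte or macrophage-like cells in IMQ and 58.7% in IMQ+celastrol, and 9.23% and 56.4% of neutrophil-like cells.

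The interferons themselves were rare. Ifnb1, encoding interferon-beta, had 32, 335 and 168 UMIs over all kept cells of normal, IMQ and IMQ+celastrol, in 13, 40 and 36 cells. In IMQ, dendritic cell-like cells held 62.1% of them, 208 UMIs in 14 of 60 cells, and 52 of these UMIs were in 1 cell. Monocyte or macrophage-like cells held 34.3%, 115 UMIs in 20 of 548 cells. In IMQ+celastrol the monocyte or macrophage-like cells held 72.0%, 121 UMIs in 21 of 96 cells, and dendritic cell-like cells 15.5%, 26 UMIs in 5 of 24. Fibroblast-like cells, given here as background, had 1 UMI in 1 of 3097 IMQ cells at a median depth of 8727 UMIs, where dendritic cell-like cells had 8495.5. Ifnb1 was thus 88.7-fold higher in IMQ than normal in dendritic cell-like cells (44.2 to 208) and 2.43-fold lower in IMQ+celastrol than IMQ (1.61 to 3.80). In monocyte or macrophage-like cells it was 2.16-fold lower in IMQ and 7.51-fold higher in IMQ+celastrol (5.77 to 9.79). These intervals treat UMIs as independent, which a cell with 52 of them is not.

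Ifng, encoding interferon-gamma, had 527, 1203 and 656 UMIs, of which cluster 19 held 97.2%, 95.8% and 94.5%. It stood at 782, 956 and 1242 CPM in that cluster. Ifna2 had 2, 8 and 29 UMIs in the 3 libraries. Of the 46 pathway genes outside the members, 30 were tested in monocyte or macrophage-like cells, of which 8 were higher and 4 lower in IMQ, against 9.15% and 8.38% of all genes, and 5 higher and 0 lower in IMQ+celastrol, against 4.82% and 5.01%. In fibroblast-like cells 11 of 30 were higher and 4 lower in IMQ, against 13.5% and 15.2%, and 6 higher and 1 lower in IMQ+celastrol, against 12.5% and 5.21%.

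Cxcl10, a chemokine induced by both types of interferon, did not always follow the members. In fibroblast-like cells it stood at 95.4, 263 and 139 CPM, 2.76-fold higher in IMQ than normal and 1.89-fold lower in IMQ+celastrol than IMQ, whereas 23 members were higher in the second comparison. In blood endothelial-like cells it stood at 275, 1000.1 and 168 CPM. In monocyte or macrophage-like cells it stood at 429, 740 and 1165 CPM, 1.73-fold higher in IMQ, where 12 members were lower.

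The minor classes listed here had lower sums than fibroblast-like cells of the same library, unlike the mast cell-like cells above. Schwann-like cells stood at 786, 875 and 1008 CPM for the 34 genes, with intervals that overlapped between neighbouring libraries. Ifi27l2a alone stood at 155, 159 and 381 CPM there, and without it the sum was not higher in IMQ+celastrol than in IMQ. Dermal papilla-like cells stood at 337, 326 and 432 CPM, the IMQ value resting on 24 cells. All 503 normal cells of this class were in cluster 22, which held no IMQ or IMQ+celastrol cell, so its values compare different clusters. Langerhans-like cells stood at 331 CPM in normal and 390 in IMQ. Sebocyte-like cells stood at 168, 95.4 and 156 CPM, 1.64-fold higher (1.17 to 2.27) in IMQ+celastrol than IMQ, with 52 and 28 cells. That direction reversed when each cell was weighted equally. Melanocyte-like cells, with 27 in the normal library, stood at 228 CPM.

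IMQ+celastrol and normal were compared only by their sums. The 34-gene sum in IMQ+celastrol was 2.91-fold that of normal in dendritic cell-like cells, 2.78-fold in lymphatic endothelial-like cells, 1.87-fold in cluster 12, 1.73-fold in cluster 19 and 1.49-fold in monocyte or macrophage-like cells. It was 1.38-fold in all fibroblast-like cells, yet below that of normal in 5 of the 6 fibroblast-like clusters that could be compared, at ratios of 0.454 to 0.908, and above it in cluster 3, at 1.2. In cluster 4 the interval of the ratio included 1. The sum was lower than normal in upper follicle keratinocyte-like cells (ratio 0.330), basal keratinocyte-like cells (0.432), blood endothelial-like cells (0.711) and pericyte or smooth muscle-like cells (0.810). Of 20 clusters compared, the interval lay below 1 in 10 and above 1 in 6, with a median ratio of 0.890. The fibroblast-like, monocyte or macrophage-like and keratinocyte classes are made up of different clusters in these libraries, so their class ratios also hold that difference in make-up.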

How the data were processed

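The 3 libraries were analysed from the UMI counts per gene and cell that the authors deposited. Per the file headers, the counting software was Cell Ranger 4.0.0. The submitters' processing notes name builds mm10 and GRCm38. The annotation and the options for aligning reads are not given in the sources used here. Gene positions are from GENCODE. Cells with at least 300 genes and at most 20% mitochondrial UMIs were kept. The highest Scrublet scores were left out as doublets, at 0.8% per 1000 cells (870, 513 and 330 cells of normal, IMQ and IMQ+celastrol). Cells were clustered with scanpy 1.11.5 and leidenalg 0.10.2 on Python 3.11.15 (2000 variable genes, 30 components, 15 neighbours, resolution 1), giving 43 clusters. The 36 members and 46 pathway genes were left out of the genes used for clustering, so their own counts did not define the clusters. Related genes such as Ifi205 and Ifitm1, among the leading genes of clusters 13 and 4, were not left out. Clusters were named from marker lists, and 20.5%, 18.4% and 16.2% of cells stayed unnamed or unresolved.

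UMIs were summed per class and library and divided by the class total. Poisson and conditional binomial 95% intervals came from scipy 1.17.1. Classes with at least 20 cells in both libraries were compared, with no test. Spread per cell was measured after thinning to 2000 UMIs in classes with at least 50 such cells. The interval and fold code was checked on simulated counts. Text names, for each class, up to 4 members with the largest ratios each way and those of highest level, and otherwise gives counts by member. The members and lists were chosen with earlier results of these data known. Alternatives included TMM scaling, other UMI minimums, doublet and mitochondrial filters, clustering settings, equal weight per cell and thinning to 1000 UMIs.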

Additional observations from a re-analysis of the deposited data

How the results depend on the processing

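The direction of the summed level of 34 genes between IMQ and normal held in 15 of 17 classes or clusters, with 3 sign changes among 138 alternatives. Between IMQ+celastrol and IMQ it held in 14 of 18, with 8 sign changes among 136. The changes fell in T cell-like, blood endothelial-like, Schwann-like and sebocyte-like cells and in cluster 12. The log2 ratio of sebocyte-like cells, IMQ+celastrol against IMQ, became -0.197 when each cell was weighted equally, against 0.71, and the cause was not tested. Counts of members under the alternatives are given without the share of all genes called, so whether all genes moved as well cannot be read from them. Equal weighting also gave 14 lower members in fibroblast-like cells in IMQ, against 8. In monocyte or macrophage-like cells it gave 6 higher in IMQ, against 0, and 1 lower in IMQ+celastrol, against 0. Clustering each library by itself gave 15 lower in fibroblast-like cells and 4 higher in monocyte or macrophage-like cells in IMQ, and no value for the latter in IMQ+celastrol. TMM scaling gave 15 higher in fibroblast-like cells in IMQ+celastrol, against 23, and 2 higher in monocyte or macrophage-like cells in IMQ. A mitochondrial limit of 10% gave 1 higher there. In basal keratinocyte-like cells a minimum of 100 UMIs, which tests fewer genes, gave 0 higher and 7 lower in IMQ and 5 higher and 0 lower in IMQ+celastrol. The 2 lower members in IMQ+celastrol became 1 with doublets kept, with the Scrublet threshold or with members kept in clustering. Unnamed clusters were not compared across other clusterings. No paired analysis was possible because each group is 1 library. Low-count members, and classes with few cells in 1 library, are limited by depth.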
